A study of Homo sapiens with 26 samples.

Results

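Chromosome 4 is one of the gene-poor human autosomes, and its profile is described here by band in single haploid cells that expressed the bacterial enzyme Dam. Of the chromosome's 1912 bins of 100 kb on the hg19 build, 29 had no value and 7 were 0 in every cell. The other 1876 bins, not missing and above 0 in at least 1 of the 26 cells, are described, out of 26331 bins used over all chromosomes (7.12%). The cells were single cells of the human leukaemia line KBM7, clone 5-8, labelled haploid (1N) and DamOnly. The latter label means that Dam was not fused to a protein that directs it to a site, such as lamin B1. Dam activity was switched on for 15 h with 0.5 nM Shield1, a compound that stabilises a protein carrying a destabilising tag, and cells were sorted singly from the smallest 2% by light scatter, among those positive for both Fucci cell cycle reporters. All cells were 1 group from 1 clone, with no untreated or other group to compare, so no p-value was computed and the spread given is that between cells of this clone. Lamin B1 is named in the series title, but every sample analysed here was labelled as Dam alone.

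Dam adds a methyl group to the adenine of its recognition sequence GATC, and free Dam reaches open chromatin more readily than compact chromatin. The methylated sites are then cut by DpnI, amplified and sequenced, so that more reads from a region stand for more accessible DNA. Giemsa staining of mitotic chromosomes gives light bands, which tend to be rich in genes, and dark bands, which tend to be poor in genes and often lie at the nuclear lamina. Chromosome 4 begins with gene-rich 4p16, which holds the Huntington disease gene HTT, and carries several long gene deserts. In the RefSeq annotation it had 770 protein-coding genes, or 4.05 per Mb, the third lowest density of 22 autosomes, above only chromosome 13 (2.96 per Mb) and chromosome 18 (3.37 per Mb) and far under chromosome 19 (24.8 per Mb).

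The sequence Dam reads is shown in the promoters of 4 genes, picked to stand for 4p16.3 (HTT), the accessible islands at 4p14 (RFC1, the large subunit of a clamp loader of DNA replication) and 4q31.1 (SETD7, a lysine methyltransferase), and the desert at 4p15.1 (PCDH7, a protocadherin of cell adhesion). Each is 300 bases of RefSeq sequence on GRCh38.p14, from 250 bases before to 50 bases after the gene's start, printed 5′ to 3′ on the gene's strand with every GATC in capitals.
HTT: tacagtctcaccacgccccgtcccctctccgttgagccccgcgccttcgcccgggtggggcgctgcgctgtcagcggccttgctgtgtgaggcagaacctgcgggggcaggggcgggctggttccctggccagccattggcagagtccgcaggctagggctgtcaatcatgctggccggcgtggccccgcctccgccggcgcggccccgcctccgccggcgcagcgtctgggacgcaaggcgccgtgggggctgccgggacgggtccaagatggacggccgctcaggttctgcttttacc
RFC1: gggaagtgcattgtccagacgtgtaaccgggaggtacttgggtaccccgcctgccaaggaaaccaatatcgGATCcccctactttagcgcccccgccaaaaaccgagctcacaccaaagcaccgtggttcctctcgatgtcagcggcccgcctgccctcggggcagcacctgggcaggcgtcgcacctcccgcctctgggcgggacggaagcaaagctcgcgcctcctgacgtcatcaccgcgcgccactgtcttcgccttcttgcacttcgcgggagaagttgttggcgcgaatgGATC
SETD7: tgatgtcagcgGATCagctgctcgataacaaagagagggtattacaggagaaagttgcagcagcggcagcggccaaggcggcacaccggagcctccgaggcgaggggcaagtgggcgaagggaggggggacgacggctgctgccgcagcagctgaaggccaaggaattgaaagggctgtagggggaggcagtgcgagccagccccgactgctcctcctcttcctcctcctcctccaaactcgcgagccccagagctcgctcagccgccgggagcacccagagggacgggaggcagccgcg
PCDH7: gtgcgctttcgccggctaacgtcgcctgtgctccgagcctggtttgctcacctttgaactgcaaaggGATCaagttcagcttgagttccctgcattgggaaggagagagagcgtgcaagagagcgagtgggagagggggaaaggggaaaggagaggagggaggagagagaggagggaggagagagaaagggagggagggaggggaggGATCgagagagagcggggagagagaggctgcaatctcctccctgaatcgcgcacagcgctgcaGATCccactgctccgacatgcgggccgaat
On GRCh38.p14 these promoters lie at chr4:3074431-3074730 (HTT, plus strand), chr4:39366313-39366612 (RFC1, minus strand), chr4:139556170-139556469 (SETD7, minus strand) and chr4:30720119-30720418 (PCDH7, plus strand), positions that are not those of the hg19 bins. The HTT promoter held 0 GATC, the SETD7 promoter 1, the RFC1 promoter 2 and the PCDH7 promoter 3. The letters GATC, which read the same on both strands, were present in 724 of 1677 chromosome 4 promoters (43.2%), against 14655 of 35116 promoters of all chromosomes (41.7%). The 1677 promoters are not 1 per protein-coding gene, of which chromosome 4 had 770.

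The deposited value is the observed over expected ratio of a bin in a cell. Whole counts could be recovered from these ratios, and cell totals ran from 20182 to 178941 with a median of 42448.5. On chromosome 4 a cell had from 1020 to 9338 counts with a median of 2061, which is 0.544 to 4.98 counts per bin, so that counting error is large for any 1 bin of any 1 cell. Below, a relative ratio is the ratio divided by the same cell's mean over the used bins of all other autosomes, so that 1 is the level of those autosomes. Chromosome 8 was not analysed here and is not in that mean. For summed counts, exact 95% Poisson intervals are given, which cover counting error only, since amplified reads without molecular identifiers are not independent molecules. The following stand apart and are named beside the results they touch. Cell 22 did not follow the profile of the other cells, cell 26 had the highest level, and 40 of the chromosome's bins had an expectation under 0.5 times the median, where 1 count makes a large ratio. No 2 cells looked like the same library, since the closest pair of 325, cells 9 and 16, still differed by a chi-square of 1.67 per degree of freedom over 1 Mb windows.

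Chromosome 4 carried less Dam signal than the other autosomes in nearly every cell. The relative ratio of the whole chromosome was lowest in cell 8 at 0.439, had a median of 0.670 and was highest in cell 26 at 1.13. It was under 1 in 25 of the 26 cells, cell 26 being the exception. The mean was 0.708 ± 0.133 (SD, n = 26), and summed counts over summed expectation gave 0.714 (0.709 to 0.719). Chromosome 4 took 5.15% of all counts with 7.12% of the used bins.

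Among the other chromosomes poor in genes, chromosome 13 was closest in level. The relative ratio averaged 0.708 ± 0.133 for chromosome 4 and 0.728 ± 0.102 for chromosome 13, and chromosome 4 was the lower of the pair in 15 of 26 cells. That difference, -0.05 ± 0.31 on the log2 scale (SD over cells), was smaller than its spread between cells. Chromosome 4 was lower than chromosome 18 (0.805 ± 0.148), chromosome 5 (0.865 ± 0.138) and the X chromosome (0.792 ± 0.0933) in 21 of 26 cells each. These log2 differences of -0.18 ± 0.35 for chromosome 18, -0.29 ± 0.29 for chromosome 5 and -0.17 ± 0.32 for the X chromosome were no larger than their spread. Here and below, such a spread is the scatter between cells and not the error of the mean. Against gene-dense chromosome 19 (1.60 ± 0.443) it was lower in 25 of 26 cells, with a log2 difference of -1.14 ± 0.57.

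**Figure D1:**
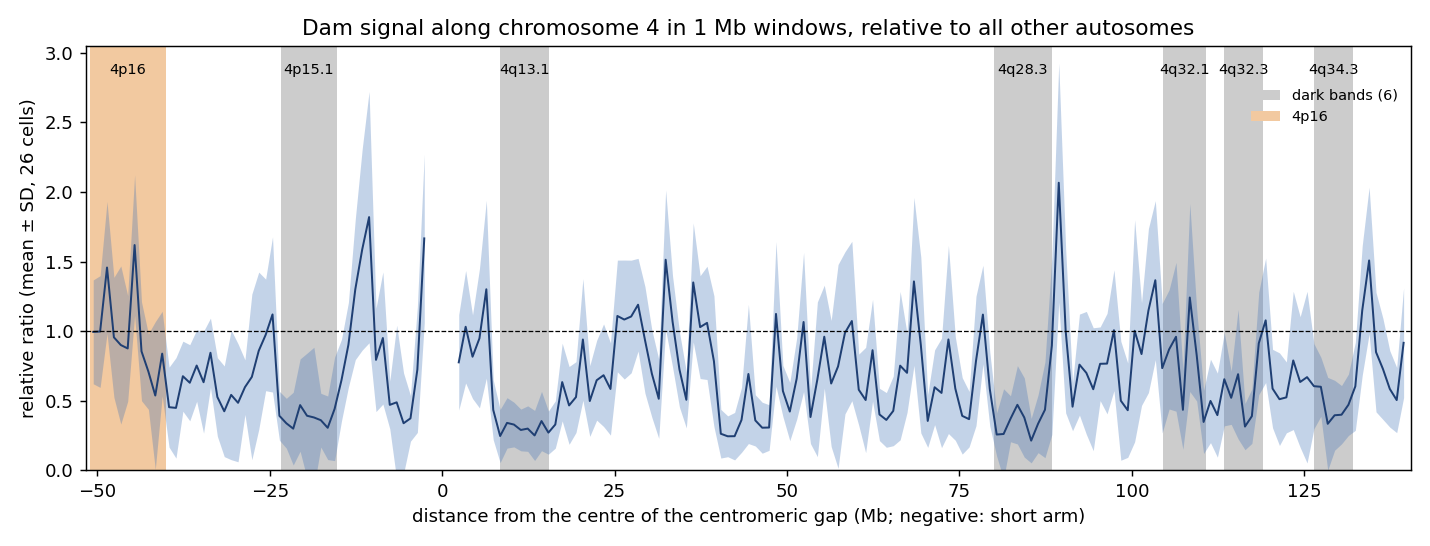
Relative ratio of chromosome 4 in 1 Mb windows (line, mean of 26 cells; blue band, SD) against the distance from the centre of the centromeric gap in Mb, with 4p16 in orange, the 6 darkest Giemsa bands in grey and the level of all other autosomes as a dashed line at 1. The highest window, 2.07 ± 0.859, stands just beyond the dark band 4q28.3, and the troughs at 4p15.1, 4q13.1 and 4q28.3 stay under 0.5 over 8 to 10 Mb.

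The profile along the chromosome had few peaks and long floors. Of 187 windows of 1 Mb with at least 8 used bins, 33 had a mean relative ratio above 1 (17.6%), against 40.5% of the windows of all chromosomes. A mean under 0.5 was found in 65 windows (34.8%), against 19.1% of the windows of all chromosomes. Chromosomes 13 and 18 were much closer, with 21.9% and 27.4% of their windows above 1 and 32.29% and 32.88% under 0.5. The X chromosome had 27.9% above 1 and 27.9% under 0.5, and chromosome 5 had 33.9% and 20.1%. Only 9 windows were above 1 in at least 21 of the 26 cells, where all chromosomes had 19.9% of their windows, and 44 were under 1 in all 26 cells, where all chromosomes had 11.5%. Chromosome 13 had 5 windows of the first kind and 16 of the second, out of 96. Chromosome 18 had 5 and 16 out of 73. The highest window was 140000001 to 141000000 in 4q31.1, and the lowest was 136000001 to 137000000 in 4q28.3 at 0.213 ± 0.160, only a few Mb before it.

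Gene-rich 4p16, the first 11 Mb of the short arm with 108 used bins, reached the level of the other autosomes. RefSeq placed 138 protein-coding genes before HS3ST1, the gene near its inner limit, among them the growth factor receptor gene FGFR3 and NSD2, a histone H3 lysine 36 methyltransferase. Its relative ratio was lowest in cell 22 at 0.246, had a median of 1.00 and was highest in cell 23 at 1.52, with 13 cells above 1 and 13 under it. The rest of the chromosome, with 1768 bins, was lowest in cell 8 at 0.409, had a median of 0.656 and was highest in cell 26 at 1.14. The cells' ranges overlapped, but within a cell 4p16 was the higher of the pair in 24 of 26. The mean was 0.984 ± 0.221 in 4p16 and 0.691 ± 0.139 in the rest (SD, n = 26). The log2 ratio of the pair was 0.48 ± 0.54, a fold of 1.40, and was smaller than its spread. Without cell 22 the log2 ratio was 0.57 ± 0.32.

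Cells 22 and 26 were the exceptions, with 4p16 under the rest by -1.68 and -0.13 on the log2 scale. In cell 22 the whole of 4p16 held 20 counts, for a summed ratio of 0.240 (0.147 to 0.371), whereas in cell 26 it held 102 counts and 1.15 (0.935 to 1.39). The rest of the chromosome had 0.795 (0.750 to 0.843) in cell 22 and 1.18 (1.12 to 1.23) in cell 26. The difference in cell 26 was thus within counting error, and that in cell 22 was not. Cell 22 had 0 counts in the windows 2000001 to 3000000, 9000001 to 10000000 and 10000001 to 11000000. In the first of these the other 25 cells ranged upward from 0.758 with a median of 1.57. In the third they ranged upward from 0.355 with a median of 0.832. The second does not set cell 22 apart, since the lowest of the other cells was also at 0 there (median 0.428). Across cells the levels of 4p16 and of the rest of the chromosome were hardly related (Pearson's r 0.105, Spearman's rho 0.022, n = 26, and r 0.031 without cells 22 and 23), values that share each cell's scaling and depth. 4p16 was still lower than the whole of chromosome 19, by -0.70 ± 0.42 on the log2 scale and in 25 of 26 cells, and lower than chromosome 17 in 25 of 26 cells (-0.57 ± 0.38), while it was lower than chromosome 13 in only 2.

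The 3 bands of 4p16 were not equally high. 4p16.3, the terminal light band that holds HTT, FGFR3 and NSD2, was lowest in cell 22 at 0.283, had a median of 1.04 and was highest in cell 23 at 2.07, with a mean of 1.08 ± 0.322 and 15 cells above 1. 4p16.2 averaged 0.871 ± 0.291 with 7 cells above 1, and 4p16.1, which holds the Wolfram syndrome gene WFS1, averaged 0.897 ± 0.199 with 6 cells above 1. Within 4p16.1 the signal was concentrated: the window 6000001 to 7000000 averaged 1.62 ± 0.505 and was above 1 in 24 of 26 cells. Low expectation was found in 5 bins of 4p16.3 and 7 of 4p16.1, and without them 4p16 averaged 1.04 ± 0.232. 4p16.1 is known for a tandem repeat array that holds copies of USP17 family genes, and the sources used here do not say how reads from such repeats were counted.

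**Figure D2:**
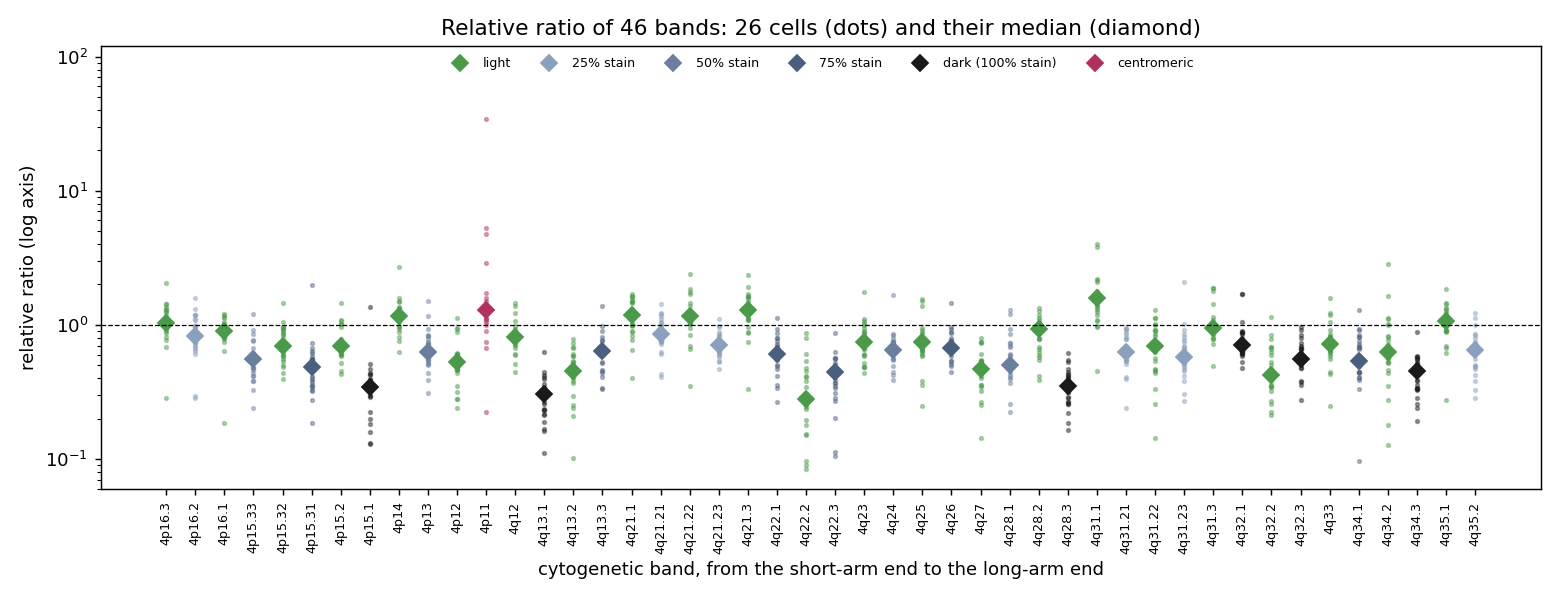
Relative ratio (log axis) of the 46 bands of chromosome 4 with at least 10 used bins, in order along the chromosome, coloured by Giemsa stain; small dots are the 26 cells and diamonds their median. The light band 4q31.1 stands highest among the bands outside the centromere, the dark bands 4p15.1, 4q13.1 and 4q28.3 are among the lowest, and the dark band 4q32.1 is not low.

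Outside 4p16, few bands reached the level of the other autosomes. Of 46 bands with at least 10 used bins, 9 had a mean relative ratio above 1, of which 8 were light bands and 1 was centromeric 4p11. The order of the means was 4p11, 4q31.1, 4q21.3, 4p14, 4q21.22 and 4q21.1, followed by 4p16.3, 4q35.1 and 4q31.3. The first place was not firm: 4p11 exceeded 4q31.1 in 9 of 26 cells only, and without bins of low expectation it averaged 1.56 ± 0.568, against 1.69 ± 0.777 in 4q31.1. From 4q21.3 down to 4q35.1, neighbours in this order differed by less than their spread between cells, and the higher of a pair was higher in 10 to 17 of 26 cells. 4q31.1 exceeded 4q21.3 in 19 of 26 cells, by 0.372 ± 0.689.

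The island at 4q31.1, 139500001 to 141500000, was the highest outside the centromere. RefSeq lists 14 protein-coding genes between the cystine transporter gene SLC7A11 and TBC1D9, among them SETD7, the ETS factor gene ELF2, NAA15, a subunit of an N-terminal acetyltransferase, and the Notch coactivator gene MAML3. The band was lowest in cell 22 at 0.457, had a median of 1.58 and was highest in cell 10 at 4.01, and 23 of 26 cells were above 1. Its mean was 1.67 ± 0.768 (SD, n = 26), where counting error alone would give an SD of 0.235, and summed counts gave 1.58 (1.51 to 1.65). Its window 140000001 to 141000000 had the highest mean on the chromosome, 2.07 ± 0.859, and was above 1 in 25 cells. At the scale of 1 Mb, that window stood above both neighbours. It exceeded the window before it in 26 of 26 cells, by 1.17 ± 0.688, and the window after it lay lower in 26 of 26 cells, by -1.06 ± 0.756. The signal still ran past both limits of the window. The bin just before, 139900001 to 140000000, averaged 2.59 ± 3.30, and the bin just after, 141000001 to 141100000, averaged 2.40 ± 2.20.

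The island at 4p14 was next among those on the short arm outside the centromere. RefSeq lists 30 protein-coding genes between ARAP2 and UCHL1, among them RFC1, the transcription factor gene KLF3 and the toll-like receptor genes TLR1, TLR6 and TLR10. 4p14 was lowest in cell 22 at 0.631, had a median of 1.17 and was highest in cell 26 at 2.71, with a mean of 1.21 ± 0.384 and 19 cells above 1. The signal lay in its second part, where 3 adjacent windows from 38000001 to 41000000 averaged 1.57 ± 0.599 and were together above 1 in 25 of 26 cells. Cell 26 reached 5.49 in the window 40000001 to 41000000, against a mean of 1.82 ± 0.903 over all 26 cells. The window after that peak was lower in 24 of 26 cells, by -1.03 ± 0.809.

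A group of 3 islands stood in 4q21. 4q21.1, the band of the chemokine genes CXCL9, CXCL10 and CXCL11, averaged 1.18 ± 0.332 and was above 1 in 18 cells. 4q21.22 averaged 1.20 ± 0.405 and 4q21.3, the band of AFF1, a fusion partner of KMT2A in leukaemia, averaged 1.30 ± 0.396, each above 1 in 21 of 26 cells. Cell 22 was the lowest cell in all 3 of these bands, at 0.404 in 4q21.1, 0.350 in 4q21.22 and 0.331 in 4q21.3. The stained bands between them were lower, at 0.878 ± 0.239 in 4q21.21 and 0.726 ± 0.151 in 4q21.23. The starts of 2 of these islands were among the picked largest steps. The window after position 83000000 averaged 1.51 ± 0.501 and the one before it 0.514 ± 0.284, and the window after position 87000000 averaged 1.35 ± 0.427 and the one before it 0.506 ± 0.202, each higher in 25 of 26 cells. The fall after the peak at 83000001 to 84000000 was gradual, through 1.07 and 0.725 to 0.506 in the next 3 windows.

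Near the centromere the picture rested on few bins. 4p11 averaged 2.80 ± 6.46 over 11 bins, but this mean was set by the bin 49400001 to 49500000, which reached 359 in cell 23 while it held 2 counts over all cells, at an expectation 0.0032 times the median. Without bins of low expectation 4p11 averaged 1.56 ± 0.568 and was above 1 in 23 of 26 cells. The window 48000001 to 49000000, which joins 4p12 to 4p11, averaged 1.67 ± 0.606, and it exceeded the window before it in 26 of 26 cells. Between 49600001 and 52600000 lay the 30 bins of the centromeric gap, none of which was used. The arms differed little: the short arm averaged 0.783 ± 0.233 and the long arm 0.681 ± 0.131, and without bins of low expectation 0.763 ± 0.135 and 0.690 ± 0.134. The short arm was the higher in 20 of 26 cells, with a log2 ratio of 0.18 ± 0.32 that was within its spread.

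The deserts formed the floor of the profile. The 6 bands of the darkest stain, with 411 bins, had a relative ratio that was lowest in cell 13 at 0.257, had a median of 0.448 and was highest in cell 22 at 0.696. Light bands outside 4p16, with 676 bins, were lowest in cell 8 at 0.497, had a median of 0.826 and were highest in cell 26 at 1.41. The ranges overlapped between cells, yet within each of the 26 cells the dark bands were the lower. The mean was 0.458 ± 0.101 in dark bands and 0.844 ± 0.161 in light bands (SD, n = 26). The log2 ratio of the pair was -0.89 ± 0.27, from -1.52 in cell 13 to -0.26 in cell 22, and bands of intermediate stain stood between both classes at 0.645 ± 0.134. Across cells the levels of dark and light bands went together (Pearson's r 0.565, Spearman's rho 0.534, n = 26, and r 0.535 without cells 22 and 26), which again share each cell's scaling.

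**Figure D3:**
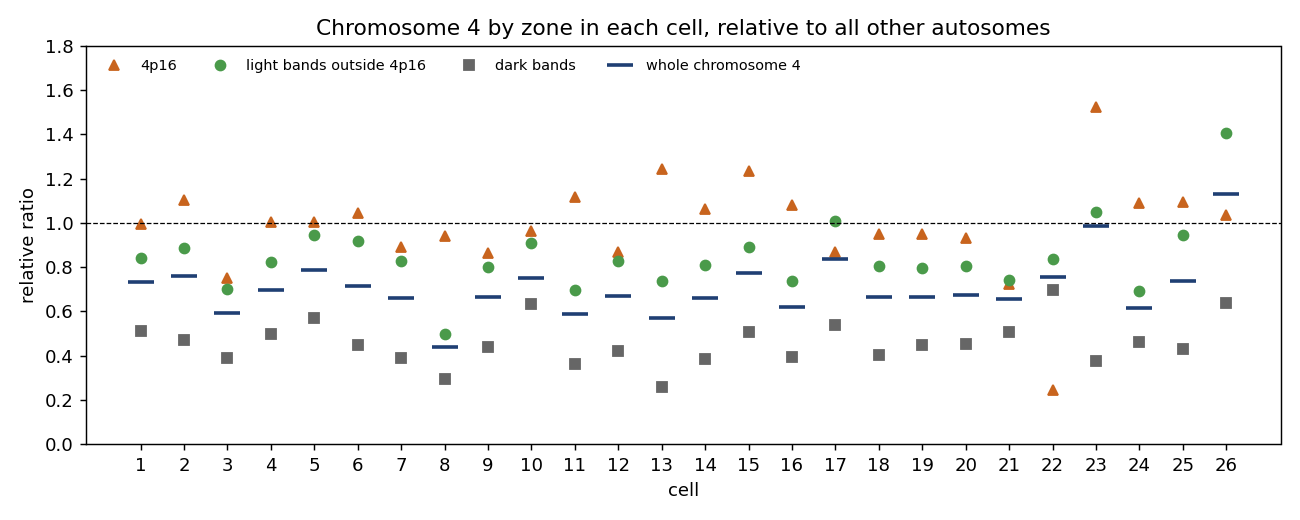
Relative ratio of 4p16 (triangles), light bands outside 4p16 (circles), dark bands (squares) and the whole of chromosome 4 (bars) in each of the 26 cells, with the level of all other autosomes as a dashed line at 1. Squares lie under circles in all 26 cells, 4p16 falls to 0.246 in cell 22, and the whole chromosome passes 1 only in cell 26.

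The longest desert was at 4q13.1. The 10 adjacent windows from 58000001 to 68000000, which take in this band and its borders, all had a mean under 0.5 and averaged 0.314 ± 0.108. RefSeq lists 4 protein-coding genes between IGFBP7 and CENPC, of which 3 have names: ADGRL3, an adhesion receptor, TECRL, a gene of inherited arrhythmia, and EPHA5, an ephrin receptor. 4q13.1 itself was lowest in cell 10 at 0.110, had a median of 0.308 and was highest in cell 20 at 0.628. No cell came near 1, and the mean of 0.300 ± 0.108 was the lowest of all 46 bands. That last place was not firm. The next band, 4q22.2, was higher in 15 of 26 cells only, by 0.0325 ± 0.184, and its median of 0.281 was lower. A bin was called positive where its ratio was 1 or more, and 94.4% of the bins of 4q13.1 were positive in at most 20% of the cells, against 49.0% of the bins of chromosome 4 and 33.5% of all used bins. The desert began at another of the picked largest steps. There the window after position 58000000 averaged 0.434 ± 0.215 and the one before it 1.30 ± 0.639, a fall in 25 of 26 cells.

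The desert at 4q28.3 bordered the highest island. RefSeq has 2 protein-coding genes between C4orf33 and PCDH18, the protocadherin gene PCDH10 and PABPC4L. The band was lowest in cell 8 at 0.165, had a median of 0.353 and was highest in cell 10 at 0.615, with a mean of 0.358 ± 0.110. The 8 windows from 131000001 to 139000000 averaged 0.340 ± 0.118, and cell 10, the highest in this desert, was also the highest in 4q31.1 next to it.

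4p15.1 was the desert of the short arm. RefSeq has 2 protein-coding genes between STIM2 and ARAP2, of which only PCDH7 has a name. The band was lowest in cell 10 at 0.128, had a median of 0.343 and was highest in cell 22 at 1.35, and cell 22 was the only cell above 1. The mean was 0.364 ± 0.226, and the 9 windows from 27000001 to 36000000 averaged 0.375 ± 0.207. Desert 4q34.3, where RefSeq has 0 protein-coding genes between AGA and TENM3, averaged 0.439 ± 0.146 and was highest in cell 22 at 0.879, so that every cell was under 1.

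Stain and signal did not always match. The dark band 4q32.1 was lowest in cell 13 at 0.474, had a median of 0.709 and was highest in cell 26 at 1.70, and its mean of 0.793 ± 0.297 was close to the 0.844 ± 0.161 of the light bands. The dark band 4q32.3 averaged 0.595 ± 0.167 and was under 1 in every cell. In the other direction, 4 of the 23 light bands had means under 0.5, as did 4 of the 6 dark bands. They were 4q22.2, at 0.333 ± 0.200, 4q13.2, the band of the UGT2B glucuronidation genes, at 0.465 ± 0.165, 4q27, the band of the interleukin gene IL2, at 0.478 ± 0.160, and 4q32.2 at 0.489 ± 0.217. 4q22.2 had the second lowest mean of all bands, with cells from 0.0838 in cell 22 to 0.874 in cell 21 around a median of 0.281. It joined 4q22.3, of intermediate stain, at 0.423 ± 0.162, and neither band passed 1 in any cell. That low stretch ended in 4q23, where the window after position 99000000 averaged 1.12 ± 0.520 and the one before it 0.307 ± 0.164, a rise in 26 of 26 cells.

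The 2 ends of the chromosome differed in level. The terminal 5 Mb of 4p was lowest in cell 22 at 0.322, had a median of 1.04 and was highest in cell 23 at 2.06. The terminal 5 Mb of 4q was lowest in cell 23 at 0.270, had a median of 0.676 and was highest in cell 10 at 1.36. The 4p end averaged 1.06 ± 0.304 and the 4q end 0.684 ± 0.241. The 4p end was the higher in 22 of 26 cells, with a log2 ratio of 0.66 ± 0.75 that was smaller than its spread. Relative to the interior, at 0.699 ± 0.135, the 4p end was higher in 24 cells (0.56 ± 0.50 on the log2 scale) and the 4q end in 11 (-0.09 ± 0.50). 4q35.1, a light band that holds the interferon regulator gene IRF2, averaged 1.06 ± 0.310, while terminal 4q35.2 averaged 0.662 ± 0.224. One bin of 4q35.2, 190500001 to 190600000, was among the highest of the chromosome, at 2.62 ± 1.61 and positive in 25 of 26 cells.

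At 0.544 to 4.98 counts per bin, whether a single bin of a cell reaches a ratio of 1 depends strongly on counting error, so the following counts describe these profiles at this depth. Of the 1876 bins, 29 were positive in at least 80% of the cells (1.55%), against 5.61% of the used bins of all chromosomes. Another 920 bins (49.0%) reached a ratio of 1 in no more than 20% of the cells, against 33.5% of the used bins of all chromosomes. No bin was positive in all 26 cells and 37 were positive in none. A cell had 26.7% ± 4.5 of chromosome 4 bins positive, against 37.2% ± 2.8 of the bins of the other autosomes. 4p16 held 6 of the 29 widely positive bins and the light bands outside it 14, whereas the 411 dark bins held 2. Rarely positive bins, those positive in 20% of the cells or fewer, made up 312 of the 411 dark bins (75.9%), 238 of the 676 light bins outside 4p16 and 28 of the 108 bins of 4p16 (25.9%).

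**Figure D4:**
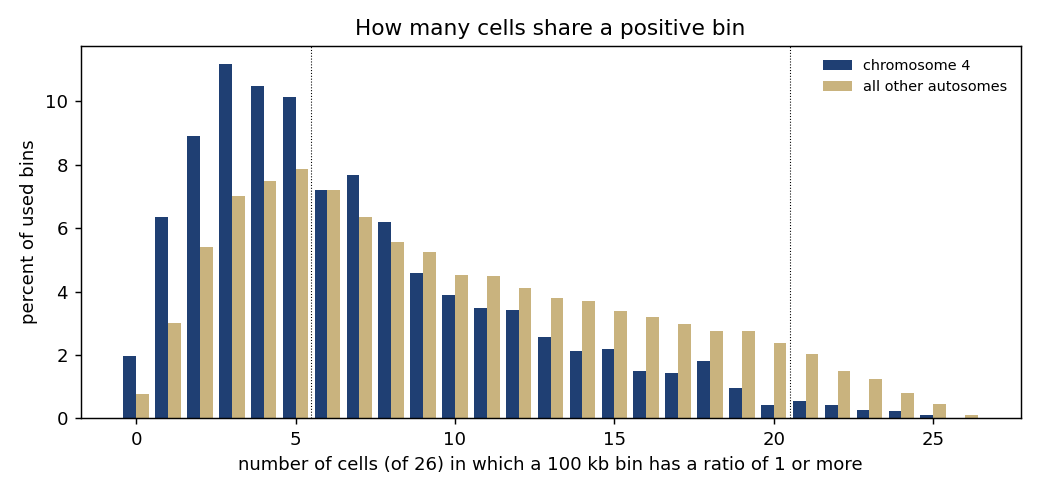
Percent of used bins (vertical axis) by the number of cells in which the bin had a ratio of 1 or more (horizontal axis), for chromosome 4 (dark blue) and all other autosomes (tan); the dotted lines mark the limits of at most 20% and at least 80% of cells. Chromosome 4 has more of its bins at the left and no bin at 26, with a median of 6 cells per bin against 8 in the other autosomes.

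Runs of adjacent bins follow in part from how many bins of each kind there are. The 29 widely positive bins fell into 22 runs, and no run was longer than 2 bins. The 7 runs of 2 bins were at 2900001 to 3100000 in 4p16.3, 6900001 to 7100000 in 4p16.1, 40200001 to 40400000 in 4p14, 48200001 to 48400000 in 4p11, 87800001 to 88000000 in 4q21.3, 140100001 to 140300000 in 4q31.1 and 169900001 to 170100000 in 4q32.3. The rarely positive bins formed 23 runs of 10 or more bins, which took up 352 bins or 18.8% of the chromosome's used bins, against 13.8% on chromosome 13, 12.9% on the X chromosome, 12.1% on chromosome 5, 10.1% on chromosome 18 and 0 bins on chromosome 19. Single runs were longer elsewhere: the longest had 28 bins on chromosome 13, 27 on the X chromosome and 25 on chromosome 18. Those of chromosomes 5 and 19 were shorter, at 19 and 5 bins. On chromosome 4 the longest run had 23 bins, 65400001 to 67700000 across 4q13.1 and 4q13.2, and averaged 0.278 ± 0.134. Both runs of 22 bins were also in 4q13.1, and those of 20 bins were at 28700001 to 30700000 in 4p15.1 and at 131000001 to 133000000, mostly in 4q28.3.

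The highest single region was 6800001 to 7000000 in 4p16.1. Its relative ratio was lowest in cell 20 at 0.398, had a median of 3.60 and was highest in cell 11 at 6.92, and all cells but cell 20 were above 1, with a mean of 3.63 ± 1.76. After it came 48200001 to 48300000 in 4p11 at 3.52 ± 2.26, 140100001 to 140300000 in 4q31.1 at 2.98 ± 1.78, 140500001 to 140600000 in the same band at 2.95 ± 1.75 and 87800001 to 88000000 in 4q21.3 at 2.74 ± 1.39. The other 5 of the 10 highest regions, 2 of them in 4p14, had means from 2.59 to 2.74. The 10 lowest regions had means from 0.0454 to 0.0980, and 3 of them were in 4q28.3 and 2 in 4p15.1. The lowest, 28100001 to 28200000 in 4p15.1, held 2 counts over all cells and was at 0 in 24 of them, at an expectation 0.940 times the median. Over all bins of chromosome 4 the expectation and the mean relative ratio were weakly related (Spearman's rho 0.166 over 1876 bins), as a description over neighbouring bins that are not independent.

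The cells shared the band profile to different degrees. The Spearman correlation of a cell's 46 band levels with the mean of the other cells was lowest in cell 22 at -0.144 and next lowest in cell 21 at 0.435, and highest in cell 19 at 0.936. Depth moved with this measure. The 6 cells of lowest coverage, cells 10, 20, 21, 22, 23 and 26, ran from -0.144 to 0.776. The other 20 ran from 0.775 to 0.936. With every cell thinned to 20000 counts, the 20 deeper cells ran from 0.702 to 0.853, cell 21 stood at 0.450 and cell 22 at -0.0976.

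Cell 22 stood apart also at equal depth, and cell 21 had fewer counts than it (20182 against 21105 in cell 22). Its departure was not particular to chromosome 4. In mean Spearman correlation with the other cells over bins, cell 22 was the lowest cell on most chromosomes. It had 0.0346 on chromosome 4, 0.0296 on chromosome 1, 0.0156 on chromosome 3 and -0.0215 on chromosome 10. The exceptions were chromosome 19, where cell 23 was lowest, and 22:9, where cell 21 was. Along chromosome 4, cell 22 had the lowest level of all cells in 15 of the 46 bands, among them 4p16.3, 4p16.1, 4p14, 4q31.1 and all 3 light bands of 4q21. It had the highest level in 10 bands, among them 4p15.1, 4p15.31, 4q34.3 and 4q31.23. Cell 26 was the highest cell in 18 bands and above 1 in 25 of the 46, with a summed ratio over the chromosome of 1.18 (1.12 to 1.23). Cell 8 was the lowest in 8 bands, and its summed ratio was 0.456 (0.435 to 0.478). Many of the extreme values named above came from cells of low coverage. Cell 26 had 23286 counts, cell 23 had 21657 and cell 10 had 25222, while cell 8 had 52958. Cell 10 was the highest in 5 bands and the lowest in 7, and cell 23 the highest in 5 and the lowest in 4. The share of depth in these departures was not tested beyond the thinned values. Across cells the total count and the level of the whole chromosome went together little (Pearson's r -0.0749, Spearman's rho 0.0550, n = 26, and r -0.128 without cells 1 and 19). That value does not concern which cells were extreme in a band.

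**Figure D5:**
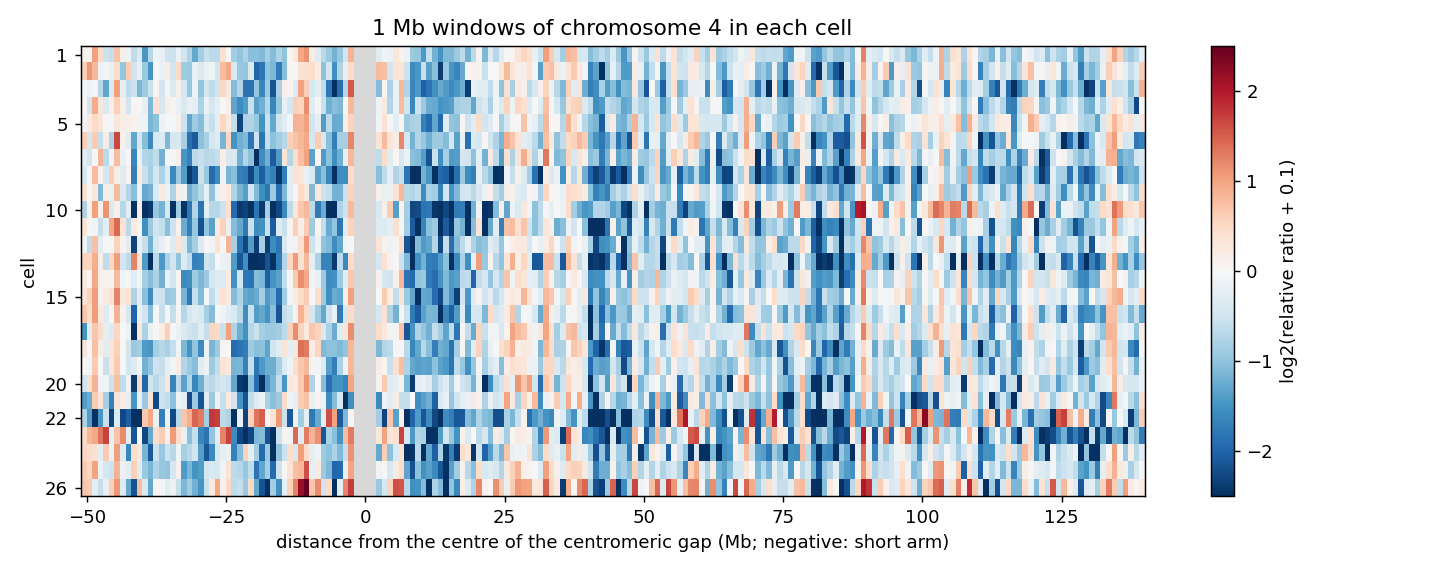
Each row is a cell and each column a 1 Mb window of chromosome 4, placed by its distance from the centre of the centromeric gap in Mb, with log2(relative ratio + 0.1) as colour (red above and blue under the level of all other autosomes; grey, the gap). The blue columns of the deserts and the red column of 4q31.1 run through most of the 26 cells, while row 22 has red where other rows are blue.

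At the scale of single bins, cells resembled each other less along chromosome 4 than along most chromosomes. Spearman correlations between cells over the bins of chromosome 4 averaged 0.199 ± 0.0473 (SD over 26 cells), the lowest of the 22 chromosomes with values by a margin that vanished on rounding, since 22:9, a translocation product under the file's own name, also had 0.199. When every cell was thinned to 20000 counts it was 0.124, the second lowest, so that the order at the bottom depended on depth. Thinning made cells equal in depth but not chromosomes, and chromosome 4 had 5.15% of all counts in 7.12% of the used bins. The part of this in its low similarity was not tested. Within the chromosome, the similarity without thinning was 0.244 ± 0.0509 in 4p16, 0.130 ± 0.0341 in dark bands and 0.205 ± 0.0575 in light bands outside 4p16. Dark bands also have the fewest counts per bin, and the part of that in their lower value was not tested.

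Neighbouring bins varied together over cells only weakly. The mean Pearson correlation over cells between chromosome 4 bins was 0.0902 at 0.1 Mb, 0.0417 at 1 Mb and 0.0241 at 20 Mb. The same values over all other autosomes were 0.113 at 0.1 Mb, 0.0470 at 1 Mb and 0.0195 at 20 Mb. Cell 22 weighed on the closest distance, where the chromosome 4 value was 0.0567 without it. Pairs of bins share cells and sequencing depth, and in counts this sparse such values describe the data only.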

How the data were processed

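Dam-only DamID reads of 26 single cells were analysed. The design text counts 124 cells, and the others were not analysed here. The authors deposited a linear ratio of observed over expected per 100 kb bin, read as such from the values and the name of the table. Per the submitters' processing notes, cutadapt, Bowtie2 2.1.0 and hg19 were used; the sources used here do not describe counting, masking or the expectation (not given).

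From the ratios, whole counts and a relative expectation per bin were recovered (largest distance from a whole number 2.42e-13, tolerance 0.001), up to a common factor in bins with counts in few cells. Steps were tested on simulated data. Each ratio was divided by the cell's mean over all other autosomes. Giemsa band limits of hg19 were entered from general knowledge, rounded to 0.1 Mb, and not taken from a file. Genes came from RefSeq on GRCh38.p14, for names and order only; genes given as those of a band are textbook background.

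Named were the 6 highest and 6 lowest bands with 10 or more bins, the bands of 4p16, the darkest bands, the 10 highest and lowest regions with an expectation of at least 0.5 times the median, the 5 longest runs and the highest and lowest windows. Further bands, windows and the 8 largest steps between adjacent windows were added after their values were seen. Members and lists were chosen with earlier results of these data known. Computations ran in Python 3.11.15 with scipy 1.17.1, numpy 2.4.6 and pandas 2.3.3, and figures in matplotlib 3.10.9. Alternatives concerned bin filters, capping, weighting, cells, zone limits, the positive value, depth and scale.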

Additional observations from a re-analysis of the deposited data

How the results depend on the processing

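Of 93 alternative values of the main results, 78 stayed within the spread between cells or within 1.5 times the main count, 15 moved and 0 reversed. All 102 alternative values of the named bands stayed within 1 SD of the cells. That limit is the spread between cells and does not measure stability to processing. In 4p11 the SD was 6.46 on a level of 2.80, so alternatives from 1.34 to 2.88 all passed. The level of chromosome 4 ran from 0.673 to 0.722, and on the log2 scale 4p16 over the rest from 0.43 to 0.64, dark over light bands from -1.03 to -0.70, 4p over 4q from 0.13 to 0.19 and ends over interior from 0.26 to 0.39. A positive limit of 0.5 gave 140 widely positive bins of chromosome 4 (80% of cells or more, 7.46% against 17.8% genome-wide) and 220 rarely positive ones (20% or fewer, 11.7% against 6.86%). A limit of 2 gave 2 such bins (0.107%, against 0.460% of all used bins) and 1682 (89.7% against 75.1%). Leaving out the 6 cells of lowest coverage gave 49 widely positive bins (2.61% against 9.18%), and thinning cells to 20000 counts gave 525 rarely positive bins (28.0% against 19.2%). The similarity of cells was 0.124 when thinned and 0.546 in 1 Mb windows. The correlation of bins at 0.1 Mb was 0.0409 without those 6 cells, 0.0567 without cell 22 and 0.0462 without cells 22 and 26. At 1 Mb it was 0.0253 when thinned and 0.0797 on log2(ratio + 0.1), and at 20 Mb it was 0.0133 and 0.0712. The cause of these moves was not tested. Leaving out cell 26, cells 22 and 26, or bins of low expectation with cell 22 was chosen after seeing the data. All cells come from 1 clone, so the spread says nothing of other cultures, and depth limits single bins. No paired analysis was possible because the cells form 1 group, with no second group to share replicate numbers; zones were set against each other within each cell.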

Other observations

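Several bands known for well-studied genes stood in the middle of the range. 4q12, the band of the receptor tyrosine kinase genes KIT, PDGFRA and KDR, had a relative ratio that was lowest in cell 8 at 0.447, had a median of 0.809 and was highest in cell 26 at 1.45, with 4 cells above 1. 4q13.3, the band of the liver genes ALB and AFP and of a cluster of CXCL chemokine genes, averaged 0.647 ± 0.215 (SD, n = 26) and passed 1 in cell 26 only. 4q23, the band of the alcohol dehydrogenase genes, averaged 0.783 ± 0.277. 4q24, which holds NFKB1 and the DNA demethylation gene TET2, averaged 0.687 ± 0.234 and again passed 1 in cell 26 only.

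4q31.3, which holds the fibrinogen genes FGA, FGB and FGG and the ubiquitin ligase gene FBXW7, averaged 1.04 ± 0.339, with 10 cells above 1 and 16 under it. Its 2 windows from 153000001 to 155000000 averaged 1.26 ± 0.499 and were together above 1 in 19 cells. Cell 22 departed from the others outside the named deserts too, at 2.82 in 4q34.2, where the median cell was at 0.629, and at 1.99 in 4p15.31, where the median was 0.482.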
